A study of Homo sapiens with 6 samples.

Results

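The 10 genes of the cohesin machinery examined here were found by their symbols in the deposited gene tables, and all 10 are among the 57820 genes listed there. They are the ring subunits SMC1A, SMC3 and RAD21, the alternative RAD21-bound subunits STAG1 and STAG2, the loader genes NIPBL and MAU2, and the release and regulatory factors WAPAL (now named WAPL), PDS5A and PDS5B. Libraries of total RNA, 3 of CTCF-WT and 3 of CTCF-dRBR, were sequenced from SEM, a human B-cell acute lymphoblastic leukemia (B-ALL) line, after ribosomal RNA was removed. In both groups the endogenous CTCF carried a miniAID-mClover3 degron tag, and the cells constitutively expressed OsTIR1(F74G), the plant receptor that directs the tagged protein to degradation when the auxin analog 5-Ph-IAA is present. 5-Ph-IAA was present for 24 h in all. Doxycycline at 1 µg/mL was added for the last 18 h to induce HA-tagged CTCF, either whole (CTCF-WT) or without the RNA-binding region (CTCF-dRBR). The question is thus whether RNA levels of cohesin genes differ between the cells with the whole and those with the shortened CTCF. Per the methods, each group is its own line, made from the tagged cells by transduction with its construct. An effect of the missing region and a difference between the lines therefore cannot be told apart. The sample names carry the same clone-like code, C27, in both groups. The genotype labels of CTCF-WT name the tagged endogenous gene alone, whereas those of CTCF-dRBR also name the TRE3G-HA-CTCF-dRBR transgene. Nothing states that replicates came from separate cultures, so the p-values measure the spread between these libraries, which may be technical.

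Cohesin is a ring built of the SMC1A and SMC3 coiled-coil ATPases closed by the kleisin RAD21, with either STAG1 or STAG2 bound to RAD21. The NIPBL–MAU2 dimer loads it onto DNA and stimulates loop extrusion, while WAPAL, acting with PDS5A or PDS5B, opens the ring and releases it. Loops extruded by cohesin often stop at CTCF bound to DNA, and in dividing cells the same ring holds sister chromatids together.

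The libraries held 51732177 to 53166735 expected counts in CTCF-WT and 30034505 to 50457168 in CTCF-dRBR, the lowest total being that of CTCF-dRBR replicate 1. A count of 3 corresponded to 0.0564 to 0.0999 CPM (counts scaled to library size), far under the level of each cohesin gene. Of the B-lineage markers, 9 of 10 passed the expression filter (DNTT did not), with summed levels of 946 to 1043 CPM in CTCF-WT against 627 to 1115 CPM in CTCF-dRBR. The summed T cell markers reached at most 0.799 CPM, with CD3D at 0 in every library, and among the other lineages AHSP, ALAS2 and ELANE were at 0 throughout. The summed levels over the 6 libraries were 7.72 to 13.1 CPM for the myeloid, 0.30 to 1.07 CPM for the erythroid and 25.4 to 75.3 CPM for the fibroblast markers. The libraries also differed in a trend with exonic GC content, the share of G and C bases in a gene's exons. Spearman's rho across genes between GC content and a library's deviation from the 6-library mean was 0.709, 0.674 and 0.339 in CTCF-WT replicates 1 to 3. It was −0.78, −0.417 and 0.504 in CTCF-dRBR replicates 1 to 3. CTCF-dRBR replicate 1 therefore stood at the AT-rich end, and the log2 fold changes of the members are given with and without it.

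Compared per length, the cohesin genes spanned a wide range of RNA levels. Deposited TPM values were rescaled in each library to the same total over protein-coding genes, because these genes held from 30.2% to 63.2% of the deposited TPM. On this rescaled TPM scale the mean over all libraries was 292 for RAD21, 213 for STAG2 and 197 for SMC1A, the 3 most abundant members. PDS5A followed at 128, PDS5B at 90.6, WAPAL at 86.1, SMC3 at 69.2 and STAG1 at 60.8. The loader genes were the least abundant, with MAU2 at 29.3 and NIPBL at 20.2 rescaled TPM. Among 18933 protein-coding genes above 0, RAD21 stood at the 97.6 percentile and NIPBL at the 67.7 percentile. Of the 9 steps between neighbors in this order, 4 held in all 6 libraries: SMC1A over PDS5A, PDS5A over PDS5B, WAPAL over SMC3, and STAG1 over MAU2. The other steps held in 4 or 5 of 6 libraries and so did not exceed the spread between libraries. STAG2 exceeded SMC1A in 1 of 3 CTCF-WT libraries and in 3 of 3 CTCF-dRBR libraries.

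**Figure D1:**
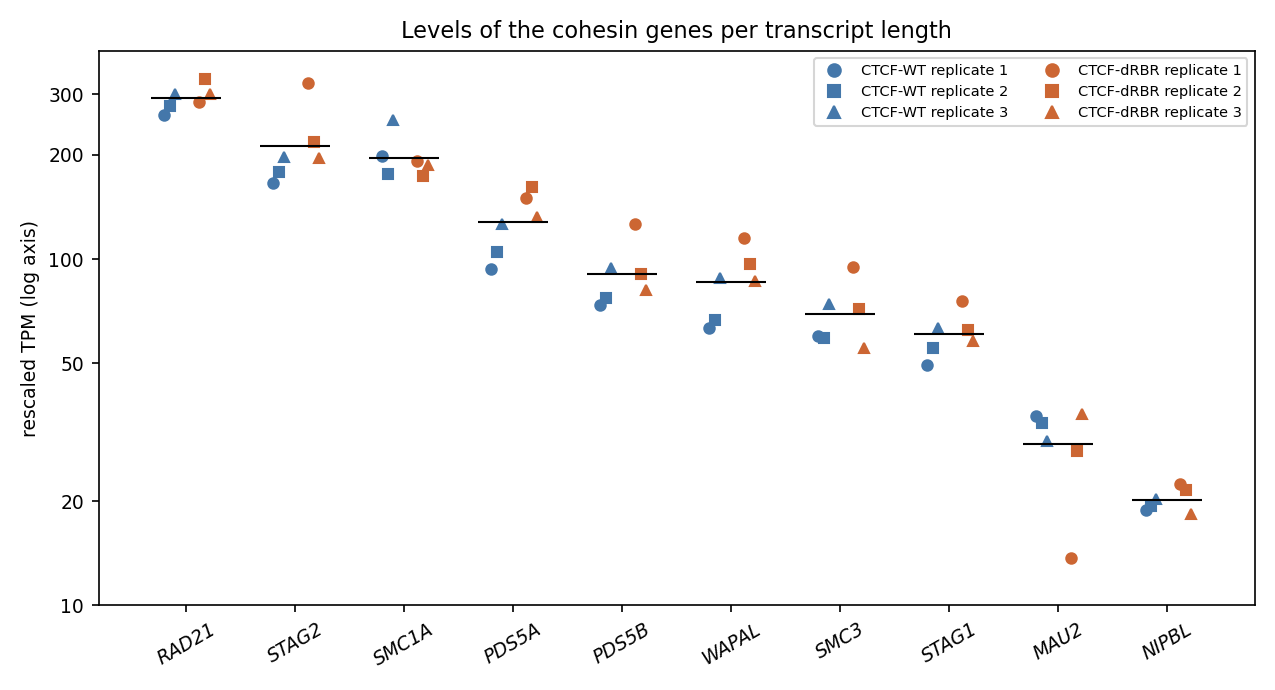
RNA level of each cohesin gene as rescaled TPM (log axis), with 1 point per library and a line at the mean of the 6 libraries. RAD21 has the highest mean, at 292, and NIPBL the lowest, at 20.2.

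The groups were compared by limma-voom over the 14044 genes with at least 1 CPM in any library, and all 10 cohesin genes passed that filter. At a false discovery rate of 0.05, 0 cohesin genes and 0 of all genes tested passed by limma-voom, and edgeR also called 0 of each (24.6% of all genes were under an unadjusted p of 0.05 there), against 1 member (SMC1A) and 1619 genes (11.5%) by DESeq2. At an unadjusted p under 0.05 there was 1 member higher in CTCF-dRBR (PDS5A) and 1 lower (SMC1A), where 12.6% of all genes tested passed as higher and 12.8% as lower. The same 2 members were the ones whose libraries did not overlap between groups. Among all genes, 20% were higher and 17.5% lower without overlap. The median log2 fold change of the 10 members was 0.08, with 7 of 10 above 0, and that of all genes tested was −0.01. The sign of the members' median rested on CTCF-dRBR replicate 1, without which the median was −0.07. Leaving out any other library gave 0.06 to 0.23, the highest being that without CTCF-dRBR replicate 3. CTCF-dRBR replicate 1 was the highest of the 6 for 8 members, the exceptions being SMC1A and MAU2, and CTCF-dRBR replicate 3 was the lowest for 5.

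**Figure D2:**
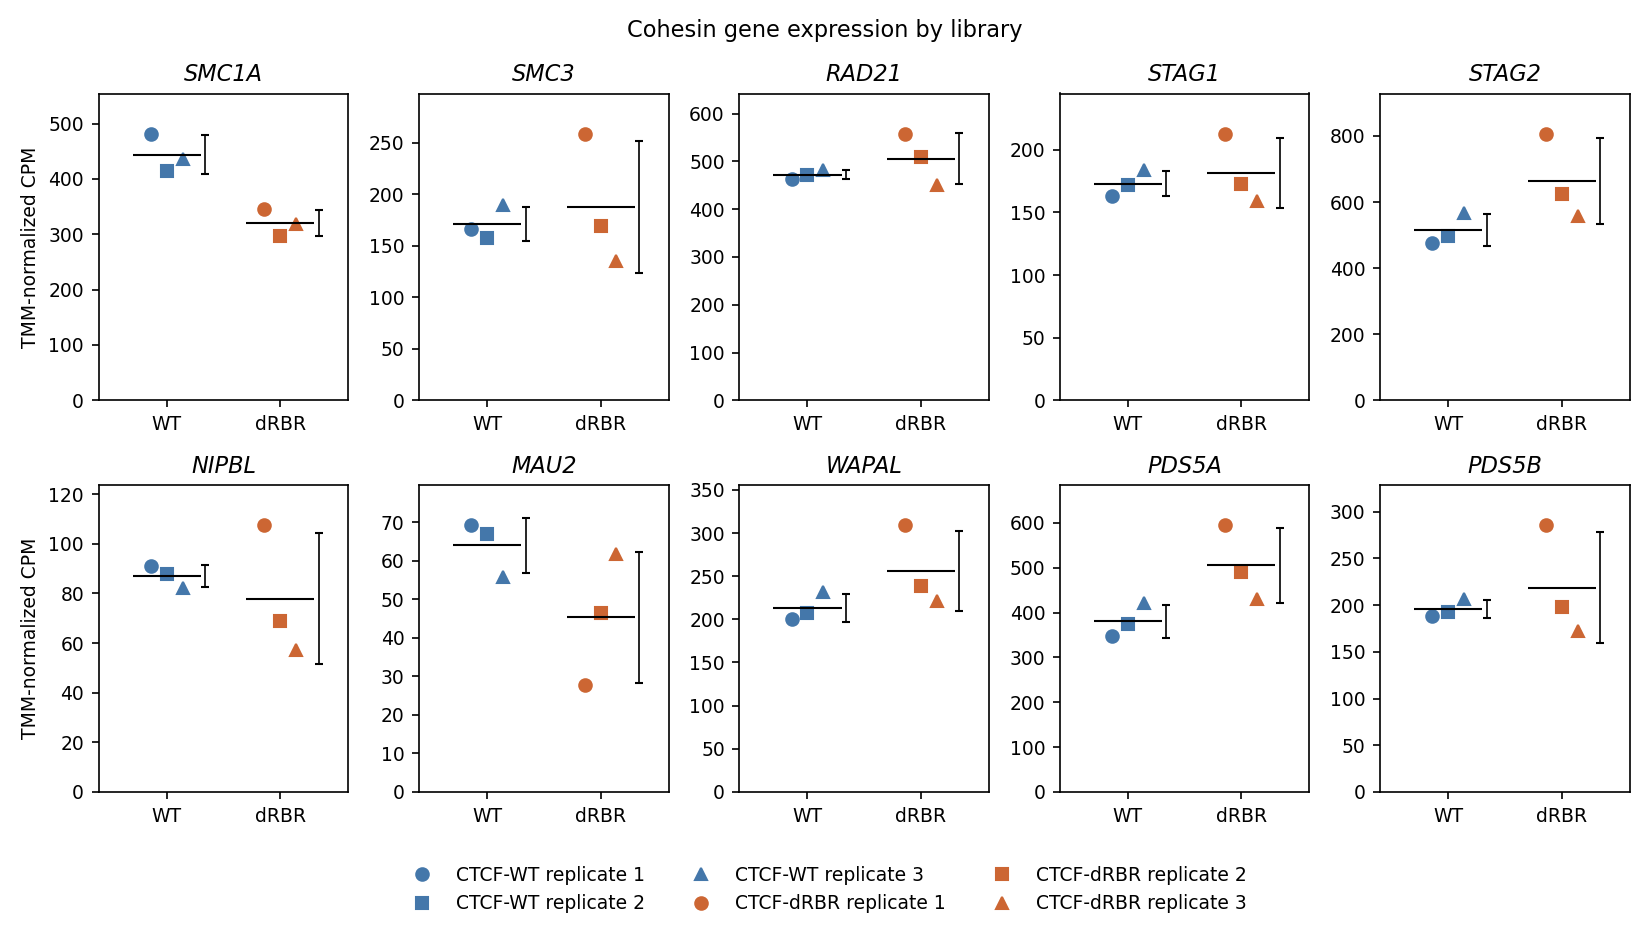
TMM-normalized CPM of the 10 cohesin genes in each library, with a line at each group mean and a bar of ±1 SD (n = 3). The groups are apart for SMC1A and PDS5A, and CTCF-dRBR replicate 1 is the highest point in 8 panels.

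Among the ring subunits, SMC1A had the lower level in CTCF-dRBR and SMC3 and RAD21 overlapped between the groups. SMC1A (ENSG00000072501.13; GRCh37 chromosome X, 53401070 to 53449677, minus strand) encodes an ATPase subunit of the ring. It was measured at 482, 415 and 435 CPM in CTCF-WT replicates 1 to 3 and at 345, 297 and 318 CPM in CTCF-dRBR. Every CTCF-dRBR library thus lay below every CTCF-WT library, and here CTCF-dRBR replicate 1 was neither the highest nor the lowest of the 6. The mean was 444 ± 34.4 CPM for CTCF-WT and 320 ± 23.9 CPM for CTCF-dRBR (SD, n = 3 each). A two-sided exact permutation test gave p = 0.1, the lowest value that 3 libraries against 3 can reach. The log2 fold change was −0.47 (SE 0.10, 95% interval −0.72 to −0.23), with an unadjusted p of 0.00313 and an adjusted p of 0.112 by limma-voom. The value moved to −0.53 and passed when CTCF-dRBR replicate 1 was left out (adjusted p = 0.0426, limma-voom), as 535 of all genes then did (3.9%). In bulk RNA, fewer cells expressing a gene and less RNA per cell cannot be told apart.

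Because SMC1A was the member with the smallest p, the 250 bases before a RefSeq start site of the gene are shown (GRCh38.p14, chrX:53422729-53422978, minus strand, read 5′ to 3′), with GC boxes in capitals. A GC box was searched as GGGCGG on both strands, and 45% of 35116 RefSeq promoter windows hold at least 1.

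SMC1A: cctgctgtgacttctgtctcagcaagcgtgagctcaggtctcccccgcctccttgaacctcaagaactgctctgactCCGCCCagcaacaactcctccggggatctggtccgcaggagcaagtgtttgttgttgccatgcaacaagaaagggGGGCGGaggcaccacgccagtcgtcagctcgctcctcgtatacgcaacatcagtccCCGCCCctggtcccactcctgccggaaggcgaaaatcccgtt

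This stretch has a GC content of 60.4% and 3 GC boxes. The letters AGGGGGCGC, common in the core of CTCF binding motifs, were searched on both strands as well and are not in the SMC1A windows of the table, each running from 250 bases before a start to just after it. They occur in 1.93% of all windows. Of the 10 members 9 matched the promoter table, with 12 windows, and RAD21 did not. Each of the 12 windows holds at least 1 GC box, and those of STAG1 and PDS5B hold 3 as well.

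SMC3 (ENSG00000108055.9; chromosome 10, 112327442 to 112365806, plus strand), the partner ATPase whose acetylation stabilizes the ring on chromatin, had 167, 158 and 190 CPM in CTCF-WT. In CTCF-dRBR it had 259, 169 and 136 CPM. The CTCF-dRBR libraries held both the highest and the lowest value. The log2 fold change was 0.08 (SE 0.24, interval −0.49 to 0.64, adjusted p = 0.832 by limma-voom), an interval with room for a difference of either sign. Without CTCF-dRBR replicate 1 it was −0.18. RAD21 (ENSG00000164754.8), the kleisin that closes the ring and is cut by separase at anaphase, had the smallest SD of the 10 in CTCF-WT relative to its mean, at 462, 472 and 483 CPM. In CTCF-dRBR it had 558, 508 and 451 CPM, with replicate 3 below and the other two above all CTCF-WT libraries. Its log2 fold change was 0.09 (SE 0.10, interval −0.16 to 0.34), and 0.016 without CTCF-dRBR replicate 1. RAD21 shares 576 exonic bases with UTP23 on the opposite strand, which had a mean expected count of 4066. The deposited tables carry a stranded mark, yet no source used here describes how strand entered the counting, so reads over this stretch may belong to either gene.

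For the STAG subunits, STAG2 was the larger of the pair in every library and its CPM overlapped between groups by a narrow margin. STAG2 (ENSG00000101972.14; chromosome X, 123094062 to 123556514, plus strand), which is recurrently mutated in several cancers including myeloid leukemia, was at 476, 498 and 568 CPM in CTCF-WT. It was at 807, 624 and 557 CPM in CTCF-dRBR. CTCF-dRBR replicates 1 and 2 lay above all CTCF-WT libraries, and replicate 3 just under CTCF-WT replicate 3. The log2 fold change was 0.35 (SE 0.16, interval −0.03 to 0.73, adjusted p = 0.211 by limma-voom), and 0.20 without CTCF-dRBR replicate 1 (adjusted p = 0.258). STAG1 (ENSG00000118007.8; chromosome 3, 136055078 to 136471245, minus strand), its paralog, had 163, 172 and 184 CPM in CTCF-WT against 213, 173 and 159 CPM in CTCF-dRBR. The CTCF-dRBR libraries spanned those of CTCF-WT, with a log2 fold change of 0.06 (SE 0.13, interval −0.25 to 0.37), and −0.062 without CTCF-dRBR replicate 1. STAG1 shares 1661 exonic bases with PCCB on the opposite strand (mean expected count 3200), and its value is uncertain in the same way as that of RAD21.

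The loader genes had the lowest levels of the 10 and were both lower on average in CTCF-dRBR on CPM, with overlap. On rescaled TPM the means of CTCF-WT and CTCF-dRBR were 32.9 and 25.8 for MAU2 but 19.5 and 20.8 for NIPBL, also with overlap. NIPBL (ENSG00000164190.12; chromosome 5, 36876871 to 37066515, plus strand), the large loader subunit that is mutated in most Cornelia de Lange syndrome, was at 91.0, 87.7 and 82.3 CPM in CTCF-WT. In CTCF-dRBR it was at 108, 69.0 and 57.3 CPM. Replicate 1 lay above, and replicates 2 and 3 below, every CTCF-WT library. The log2 fold change was −0.23 (SE 0.22, interval −0.77 to 0.30, adjusted p = 0.471 by limma-voom) and −0.47 without CTCF-dRBR replicate 1 (adjusted p = 0.0615). MAU2 (ENSG00000129933.16; chromosome 19, 19431638 to 19469563, plus strand), the subunit that holds and stabilizes NIPBL, was at 69.2, 66.8 and 55.8 CPM in CTCF-WT against 27.9, 46.4 and 61.6 CPM in CTCF-dRBR. CTCF-dRBR replicate 1 was the lowest library here, and replicate 3 lay among those of CTCF-WT. The log2 fold change of MAU2 was the most negative of the 10, at −0.52, but its SE of 0.27 was also the largest (interval −1.17 to 0.14, adjusted p = 0.247). That rank rested on CTCF-dRBR replicate 1, without which MAU2 was at −0.25 (adjusted p = 0.275), less negative than SMC1A and NIPBL.

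Of the release factors, PDS5A was higher in CTCF-dRBR without overlap, by a difference that did not pass adjustment, and WAPAL and PDS5B overlapped. PDS5A (ENSG00000121892.10; chromosome 4, 39824483 to 39979576, minus strand), a HEAT-repeat protein that binds RAD21 and serves WAPAL as well as the acetylation of SMC3, had 347, 374 and 421 CPM in CTCF-WT. It had 595, 491 and 430 CPM in CTCF-dRBR. The gap between the groups was small, from 421 to 430 CPM. The means were 380 ± 37.3 CPM and 505 ± 83.2 CPM (SD, n = 3 each; exact permutation test, p = 0.1). The log2 fold change was 0.40 (SE 0.15, interval 0.05 to 0.75, unadjusted p = 0.0313, adjusted p = 0.176 by limma-voom), and without CTCF-dRBR replicate 1 it was 0.27 (adjusted p = 0.168).

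WAPAL (ENSG00000062650.13; chromosome 10, 88195013 to 88281549, minus strand), the release factor itself, was at 201, 207 and 232 CPM in CTCF-WT against 309, 238 and 221 CPM in CTCF-dRBR. Replicate 3 of CTCF-dRBR lay among the CTCF-WT libraries and the other two lay above them. WAPAL thus had a log2 fold change of 0.25 (SE 0.15, interval −0.10 to 0.60, adjusted p = 0.28 by limma-voom), which was 0.11 without CTCF-dRBR replicate 1 (adjusted p = 0.469). PDS5B (ENSG00000083642.14; chromosome 13, 33160589 to 33352157, plus strand), the paralog of PDS5A, was at 189, 192 and 207 CPM in CTCF-WT against 286, 198 and 172 CPM in CTCF-dRBR. As for SMC3, the CTCF-dRBR libraries held both extremes of PDS5B, and the log2 fold change was 0.12 (SE 0.19, interval −0.33 to 0.57), or −0.087 without CTCF-dRBR replicate 1. PDS5B was the member whose promoter window held AGGGGGCGC, beginning 91 bases before the start, shown in capitals from the plus strand (GRCh38.p14, chr13:32586351-32586380). The bases shown hold no GC box, while the whole window holds 3.

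PDS5B: tctggtcggcAGGGGGCGCtgcgcacccat

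The letters alone do not show that CTCF binds there, and ChIP-seq was not analysed here. The windows of the other 8 matched members did not hold them. GC content over the 12 windows ran from 56% for SMC3 to 76.3% for WAPAL against a median of 58.7% over all windows.

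Base composition moved with the group difference, and the cohesin genes are an AT-rich set. Their exonic GC content was 34.2% to 40.5% for 8 members, 47.9% for SMC1A and 57.4% for MAU2, against a median of 46.9% for the genes tested. Genes of 38% to 40% GC had a median log2 fold change of 0.28 (n = 1272), genes of 46% to 48% a median of 0.01 (n = 1077), and genes of 56% to 58% a median of −0.49 (n = 750). Against genes of like composition, MAU2 at −0.52 and WAPAL at 0.25 were near the medians of their bins. Below theirs were SMC1A at −0.47, NIPBL at −0.23, SMC3 at 0.08, RAD21 at 0.09, STAG1 at 0.06 and PDS5B at 0.12. STAG2 at 0.35 and PDS5A at 0.40 were above theirs. The 2 libraries with a negative rho were both CTCF-dRBR, while CTCF-dRBR replicate 3, at 0.504, lay between CTCF-WT replicates 2 and 3.

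**Figure D3:**
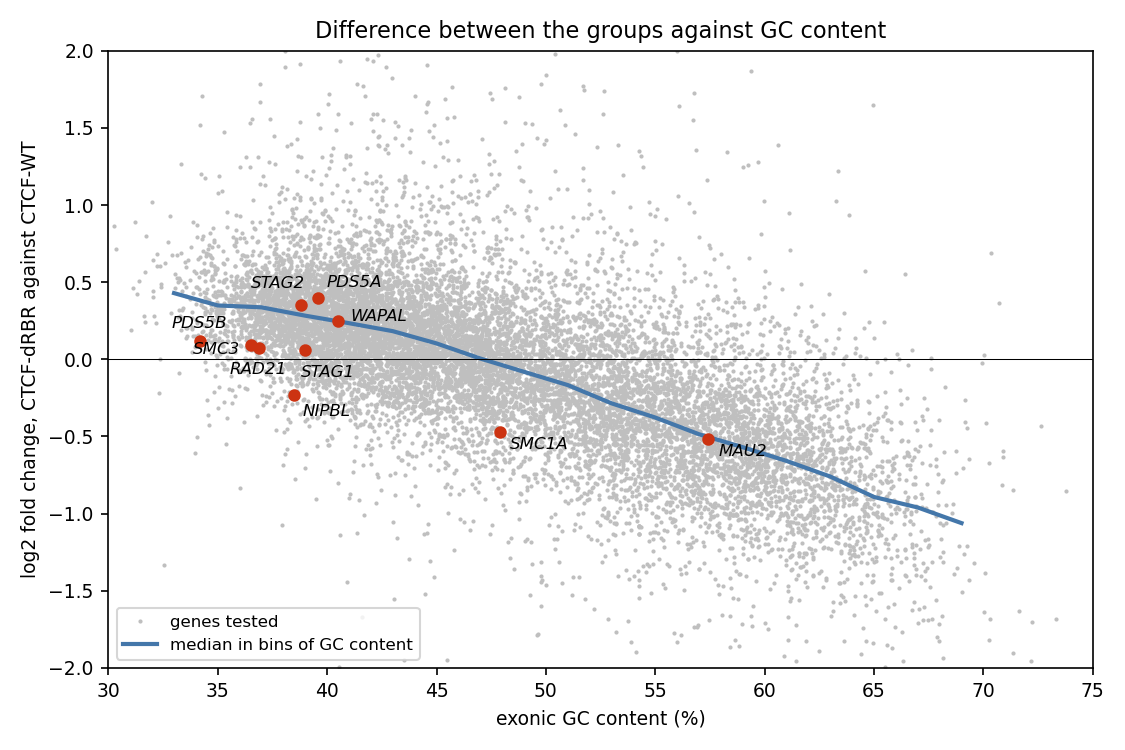
Log2 fold change of CTCF-dRBR against CTCF-WT (vertical axis) against exonic GC content (horizontal axis, percent) for the genes tested, with the line at the median in bins of GC content. Another 116 genes lie beyond ±2 and are not drawn. SMC1A, SMC3, RAD21, STAG1, NIPBL and PDS5B lie below the line, and MAU2 and WAPAL lie near it.

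When the loess trend with GC content was taken out of each library, the SD of the CTCF-dRBR libraries narrowed for every member except SMC1A, and the log2 fold changes of the 8 AT-rich members moved downward. The SD of the CTCF-WT libraries widened for SMC1A (34.4 to 38.4 CPM), RAD21 (10.4 to 25.7 CPM) and NIPBL (4.39 to 11.4 CPM). It narrowed for the other members. STAG1 was then at 202, 202 and 201 CPM in CTCF-WT against 166, 172 and 176 CPM in CTCF-dRBR. PDS5B was at 247, 233 and 234 CPM against 200, 194 and 190 CPM. In both genes the groups no longer overlapped, and the SD within a group was at most 7.86 CPM. NIPBL was at 113, 103 and 90.4 CPM in CTCF-WT against 83.1, 68.4 and 63.2 CPM in CTCF-dRBR, lower in every library. MAU2 had means of 55.2 ± 0.281 CPM and 55.0 ± 1.41 CPM (SD, n = 3 each), with a log2 difference of −0.01 (interval −0.14 to 0.13). WAPAL likewise had a difference of −0.01 (interval −0.13 to 0.12).

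In this setting 4 members passed a false discovery rate of 0.05 by limma-voom, all lower in CTCF-dRBR, where 1326 of 13654 genes (9.71%) passed. They were SMC1A (−0.46, adjusted p = 0.0363), PDS5B (−0.29, 0.0321), STAG1 (−0.23, 0.0417) and NIPBL (−0.53, 0.0474). SMC3 (−0.26, adjusted p = 0.145) and RAD21 (−0.26, adjusted p = 0.112) did not pass. PDS5A was at 0.12 (interval −0.02 to 0.25), its groups still apart, and STAG2 at 0.05 (interval −0.08 to 0.18). Without overlap, 5 members were lower (SMC1A, RAD21, STAG1, NIPBL and PDS5B) and 1 higher (PDS5A), where 20.9% and 18.6% of all genes were. The count of 4 calls was 0 when any of CTCF-WT replicate 1, 2 or 3 or CTCF-dRBR replicate 2 or 3 was left out. Of all genes, 5.21% passed without CTCF-WT replicate 3 and 0% in each of the others of these fits. The count was 5, with SMC3 added, without CTCF-dRBR replicate 1, where 24.5% of all genes passed. In the 5 fits without a member called, the log2 fold changes ran from −0.50 to −0.39 for SMC1A, from −0.30 to −0.26 for PDS5B, from −0.25 to −0.23 for STAG1 and from −0.62 to −0.44 for NIPBL. With all 6 libraries SMC1A was at −0.47 before and −0.46 after removal of the trend. It was at −0.53 with and without the trend when CTCF-dRBR replicate 1 was left out. Genes of 46% to 48% GC, like SMC1A, had a median of 0.01, so removing the trend could move SMC1A little. SMC3, RAD21, STAG1, PDS5B and, at −0.01, WAPAL changed direction when the trend was removed.

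**Figure D4:**
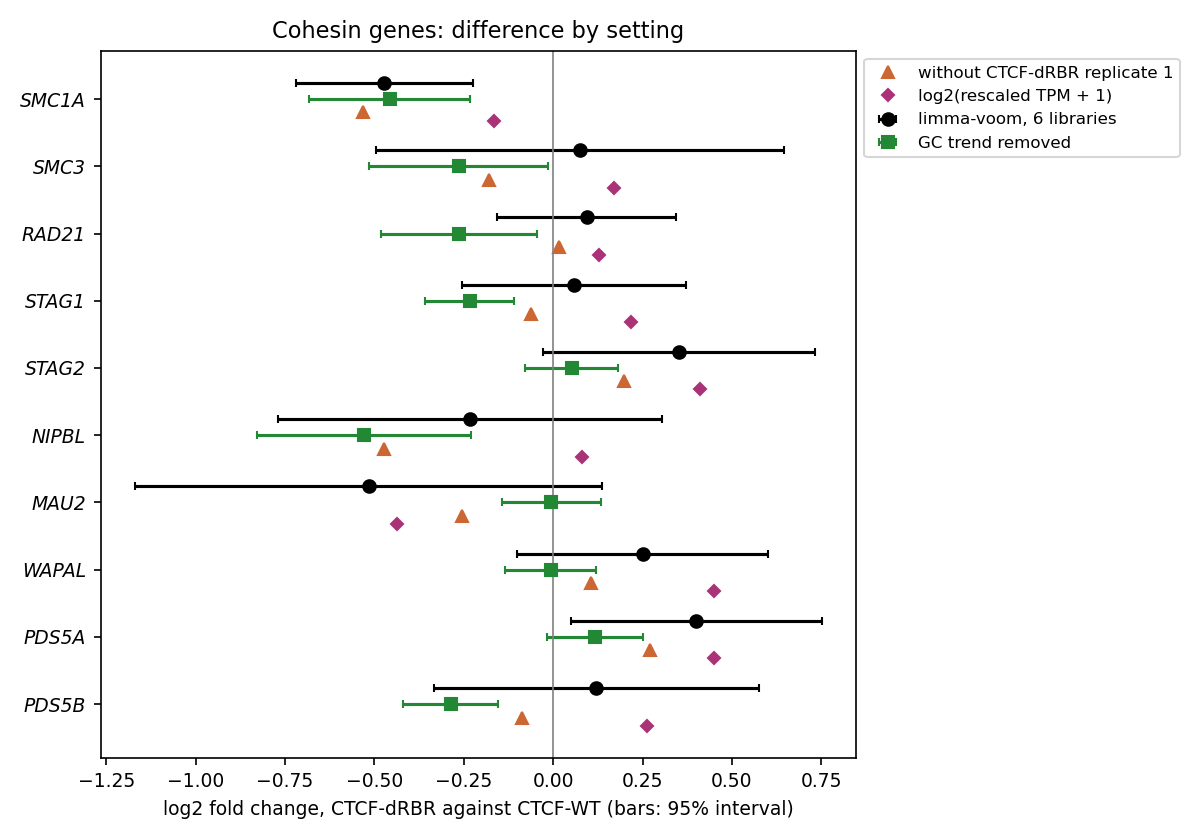
Log2 fold change of each cohesin gene in CTCF-dRBR against CTCF-WT (horizontal axis) by 4 settings. Circles are limma-voom on 6 libraries and squares the same after removal of the GC trend, both with 95% intervals, triangles leave out CTCF-dRBR replicate 1, and diamonds use rescaled TPM. SMC1A is below 0 in all 4 settings, from −0.53 to −0.16.

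SMC1A, apart between the groups on CPM, was not apart on TPM, which differs from CPM both in the effective length and in the total used for scaling. On the rescaled TPM scale it was at 198, 177 and 252 in CTCF-WT and at 193, 174 and 187 in CTCF-dRBR, so that the groups overlapped (exact permutation test, p = 0.4). Expected count over TPM gives the effective length that RSEM used, which depends on the isoforms assigned. Relative to its mean over the 6 libraries and to other genes of the same library, this length for SMC1A was 1.16, 1.17 and 0.907 in CTCF-WT and 0.907, 0.963 and 0.928 in CTCF-dRBR. CTCF-WT replicates 1 and 2 thus had longer effective lengths of SMC1A than the other 4 libraries. NIPBL varied as widely, with 1.11, 1.08 and 1.02 in CTCF-WT and 1.17, 0.864 and 0.816 in CTCF-dRBR. In 0 of 10 members did the relative effective length separate the groups, which it did in 16.5% of 9658 genes. PDS5A was the member whose groups stayed apart on rescaled TPM as well, at 93.5, 105 and 126 in CTCF-WT and 150, 161 and 132 in CTCF-dRBR (exact permutation test, p = 0.1). On log2(TPM + 1) of the deposited TPM, without rescaling, SMC1A turned to a log2 difference of 0.30, with a median of 0.40 over all genes.

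Ratios within a library, which do not depend on the total, were compared for 6 pairs of members. STAG2 made up 77.0%, 76.3% and 75.7% of the STAG1 plus STAG2 TPM in CTCF-WT and 81.0%, 77.7% and 77.1% in CTCF-dRBR. The share was higher in every CTCF-dRBR library, by 2.26 percentage points on average (exact permutation test, two-sided, p = 0.1, Benjamini-Hochberg adjusted over the 6 ratios 0.3). Without CTCF-dRBR replicate 1 the difference was 1.09 percentage points (exact permutation p = 0.2). On CPM, whose scale is not per length, the share was 74.3% to 75.6% in CTCF-WT and 77.8% to 79.1% in CTCF-dRBR, and removal of the GC trend left the groups as far apart.

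The log2 ratio of WAPAL to NIPBL, a release factor over a loader, was 1.74, 1.79 and 2.12 in CTCF-WT and 2.36, 2.17 and 2.23 in CTCF-dRBR on TPM. It was higher in every CTCF-dRBR library, by 0.37 (exact permutation test, p = 0.1, adjusted 0.3), and the groups were apart on CPM with and without the GC trend too. The PDS5A share of PDS5A plus PDS5B was 55.9%, 57.7% and 57.2% of TPM in CTCF-WT and 54.3%, 64.0% and 61.9% in CTCF-dRBR (p = 0.4, exact permutation test). It overlapped through CTCF-dRBR replicate 1 alone, and without that library the difference was 6.04 percentage points against 3.16 with it. On CPM the share was apart, at 64.8% to 67.0% in CTCF-WT and 67.6% to 71.4% in CTCF-dRBR. With the GC trend removed it was 63.3% to 66.3% against 70.1% to 71.6%. On TPM, the log2 ratio of SMC1A to SMC3 was 1.73, 1.58 and 1.76 in CTCF-WT and 1.03, 1.27 and 1.75 in CTCF-dRBR (p = 0.3, exact permutation test). The mean difference of −0.34 was −0.18 without CTCF-dRBR replicate 1 and −0.54 without replicate 3. For NIPBL to MAU2 it ran from −0.90 to −0.55 in CTCF-WT and from −0.96 to 0.71 in CTCF-dRBR (p = 0.4, exact permutation test), and the mean difference of 0.54 was 0.084 without CTCF-dRBR replicate 1. With the GC trend removed from CPM, NIPBL to MAU2 was apart the other way, from 0.70 to 1.04 in CTCF-WT and from 0.16 to 0.61 in CTCF-dRBR. For RAD21 to SMC3 on TPM the mean difference was −0.04 (p = 0.9, exact permutation test), and 0.20 without CTCF-dRBR replicate 1.

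**Figure D5:**
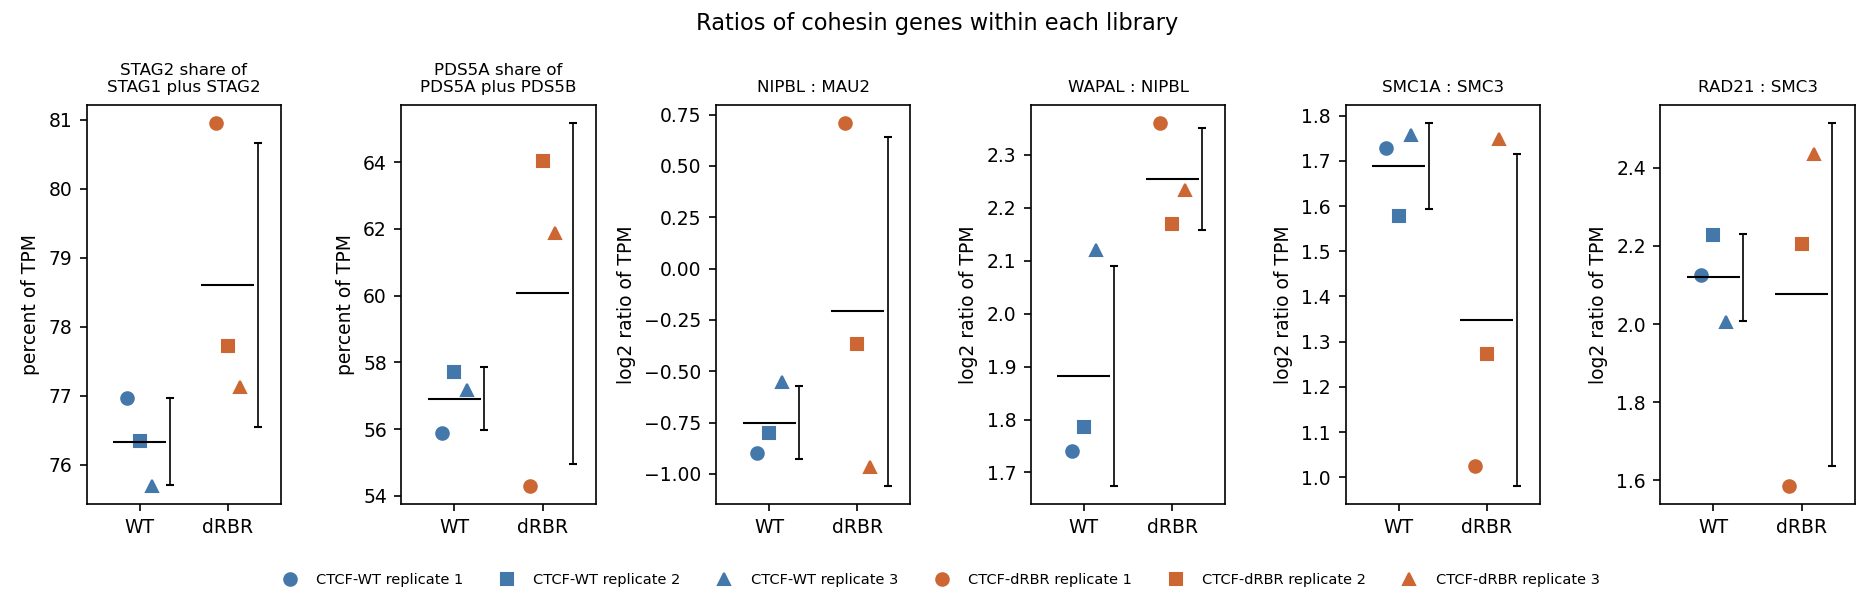
The 6 ratios between cohesin genes in each library, from TPM, as percent or log2 ratio, with a line at each group mean and a bar of ±1 SD (n = 3). The vertical axes do not start at 0. The groups do not overlap for the STAG2 share and for WAPAL to NIPBL.

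CTCF, the protein at which extruding cohesin stops, was itself at 210, 211 and 249 CPM in CTCF-WT against 273, 264 and 252 CPM in CTCF-dRBR, endogenous and induced transcripts together. Its groups did not overlap, and the log2 fold change was 0.24 (SE 0.10, interval −0.01 to 0.48, adjusted p = 0.202 by limma-voom). Among 14 regulators of the cohesin cycle (acetyltransferases, the deacetylase, sororin, shugoshin, separase and securin, mitotic kinases, and the clamp loader and helicase of cohesion establishment) 0 passed the false discovery rate by limma-voom. At an unadjusted p under 0.05, 1 was higher in CTCF-dRBR (ESCO1) and 3 lower (CHTF8, CDCA5 and AURKB). AURKB was named after its value was seen. Among all genes tested, 12.6% were higher and 12.8% lower at that threshold. The median log2 fold change of the 14 was −0.29, and that of all genes tested was −0.01. That median was taken with the GC trend left in, over genes of 38.0% (DSCC1) to 66.5% GC (CHTF18). Genes of 54% to 56% GC had a median of −0.38 among all genes tested. With the trend removed the 14 ran from −0.83 (CHTF8) to 0.31 (ESCO1), against −1.22 to 0.59 with it.

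CHTF8, a small subunit of the clamp loader that acts in cohesion establishment, was at 110, 123 and 81.9 CPM in CTCF-WT against 29.9, 45.9 and 58.8 CPM in CTCF-dRBR. No CTCF-dRBR library reached the level of CTCF-WT, with a log2 fold change of −1.22 (SE 0.27, adjusted p = 0.113 by limma-voom). The difference was −0.83 with the GC trend removed (adjusted p = 0.019) and −0.997 without CTCF-dRBR replicate 1 (adjusted p = 0.0475), and on rescaled TPM it was −0.67 (adjusted p = 0.166). Another identifier with the same symbol was at 0 in all libraries. CDCA5 (sororin), which protects cohesive rings against WAPAL, was at 121, 131 and 101 CPM in CTCF-WT against 50.5, 71.8 and 87.4 CPM in CTCF-dRBR. It was lower in each CTCF-dRBR library. With an exonic GC content of 56.5%, its log2 fold change of −0.76 (adjusted p = 0.14) moved to −0.29 once the GC trend was removed (adjusted p = 0.0676). ESCO1, an acetyltransferase of SMC3, was at 47.0, 51.8 and 60.5 CPM in CTCF-WT against 115, 74.0 and 62.3 CPM in CTCF-dRBR. The groups of ESCO1 were apart by less than 2 CPM, and the log2 fold change of 0.59 (adjusted p = 0.189) moved to 0.31 in the same setting (adjusted p = 0.121).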

How the data were processed

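Per the labels and the methods, the authors trimmed reads with Trim Galore (0.6.3), aligned them to hg19 (GRCh37) with STAR (2.7.9a) and quantified Gencode genes with RSEM (1.3.1). The deposited expected counts are RSEM estimates without normalization, and the deposited TPM are scaled by effective length and library over all genes. Reads are called paired-end in the methods and single-end in the labels. Groups came from the sample titles.

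Genes that reached 1 CPM in no library were dropped, counts were TMM-normalized (edgeR 4.0.16) and compared by limma-voom (limma 3.58.1, R 4.3.3) without covariates, as in the study, with Benjamini-Hochberg adjustment at 0.05. Counts were rounded for edgeR's quasi-likelihood test and DESeq2 (1.42.0), which were alternatives. Single values of 3 against 3 were compared by a two-sided exact permutation test (smallest p 0.1). Exonic GC content was read from the GRCh37 genome over the merged exons of all transcripts in a lifted Gencode annotation (13654 genes, 97.2%). That annotation is newer than the one behind the counts, and merged exons can hold bases outside a gene's main mRNA. The GC trend in log2 CPM (prior count 1) was removed by loess (span 0.5, degree 2). The fits were also run on simulated counts with the same spread in every library, which cannot show which setting suits these libraries. Promoter windows came from RefSeq. Depth was 30034505 to 53166735 counts, and 92 spike-in rows were left out.

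The members, lists, ratios and tests were chosen with earlier results of these data known. Named were all members, CTCF, in each list the genes past the threshold or else the 3 with the smallest unadjusted p, and the 5 non-members with a mean TPM of at least 1 whose profile was most like that of the members.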

Additional observations from a re-analysis of the deposited data

How the results depend on the processing

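Each cohesin gene was refitted in 23 other ways. SMC1A passed the threshold in 5 of them (DESeq2, voomWithQualityWeights, GC trend removed, GC trend removed with CTCF-dRBR replicate 1 left out, and CTCF-dRBR replicate 1 left out), and its adjusted p ran from 0.000337 to 0.634. PDS5A and STAG2 kept their direction in all 23, and each passed in 1 of them (voomWithQualityWeights, where 68.2% of all genes passed). That fit gave replicate 2 of each group the largest weight (5.65 in CTCF-WT, 6.19 in CTCF-dRBR). Weights elsewhere ran from 0.0969 (CTCF-dRBR replicate 1) to 1.26 (CTCF-WT replicate 1). Calls by voomWithQualityWeights, here and below, thus rested mostly on 1 library per group, as did its adjusted p of 0.000337 for SMC1A. Where a direction turned, the cause was not tested.

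The number of all genes called, 0 in the 6-library limma-voom fit, was 1619 by DESeq2, 9583 by voomWithQualityWeights, 833 on log2(TPM + 1), 760 on log2(TPM + 0.1), 1326 with the GC trend removed and 3268 with it removed and CTCF-dRBR replicate 1 left out. Leaving out 1 library gave 0 to 535. Members called, also 0, were 1 by DESeq2 (11.5% of all genes were called) and 6 by voomWithQualityWeights (68.2%). They were 4 with the GC trend removed (9.71%) and 5 when CTCF-dRBR replicate 1 was left out too (24.5%). Leaving out 1 library gave 0 to 1 (0% to 3.9% of all genes), and 0 to 5 with the GC trend removed (0% to 24.5%). Genes called in the lists of related complexes were 2 by DESeq2, 23 by voomWithQualityWeights, 3 with the GC trend removed and 8 without CTCF-dRBR replicate 1 as well, and 0 to 2 on leaving out 1 library. The shares of all genes given for the members hold for these settings too. Members under an unadjusted p of 0.05 were 7 by voomWithQualityWeights (71.4% of all genes), 6 with the GC trend removed (31.1%), 7 with that and CTCF-dRBR replicate 1 left out (40.3%), and 1 to 4 without 1 library (10.2% to 41%). The median of the members was 0.64 on log2(TPM + 1), 0.66 on log2(TPM + 0.1), −0.25 with the GC trend removed and −0.19 without CTCF-dRBR replicate 1 as well, where all genes had 0.40, 0.54, 0.00067 and 0.00086.

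Same-numbered libraries had deviations from their group means that correlated at −0.341, 0.0993 and −0.471, against −0.269 to 0.417 for the other pairs. With 3 libraries per group that differ in the GC trend, these correlations cannot show whether the numbers pair the libraries. With the replicate block 0 genes passed, and 1 member was under an unadjusted p of 0.05 (10.1% of all genes). With the block and the GC trend removed 4 members were (21.7%), and the median was −0.25.

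On log2(TPM + 1) and log2(TPM + 0.1), SMC1A turned to 0.30 and 0.30, NIPBL to 0.49 and 0.55, and MAU2 to 0.011 and 0.0094. NIPBL was at 0.081 on rescaled TPM. With the GC trend removed the values that turned were SMC3 −0.26, RAD21 −0.26, STAG1 −0.23, WAPAL −0.0073 and PDS5B −0.29. With CTCF-dRBR replicate 1 left out as well they were −0.36, −0.17, −0.21, −0.022 and −0.31, and with the replicate block −0.26, −0.26, −0.23, −0.0072 and −0.29. Without the filter on low counts SMC3 was at −0.029 and STAG1 at −0.034. With the length trend removed SMC3 was at −0.10, RAD21 at −0.071 and PDS5B at −0.028. Leaving out 1 library gave −0.18 to 0.29 for SMC3, −0.062 to 0.15 for STAG1 and −0.087 to 0.28 for PDS5B, the negative value of each being that without CTCF-dRBR replicate 1. With the GC trend removed it gave −0.024 to 0.013 for MAU2 and −0.022 to 0.0099 for WAPAL. The log2 ratio of NIPBL to MAU2 turned from 0.54 to −0.51 with the GC trend removed, and that of RAD21 to SMC3 to 0.0096 on CPM. Leaving out 1 library gave −0.22 to 0.20 for the latter. Log2 differences in relative effective length also turned on leaving out 1 library, from −0.0072 to 0.030 for SMC3, −0.013 to 0.13 for RAD21, −0.020 to 0.15 for STAG2, −0.049 to 0.020 for MAU2 and −0.019 to 0.099 for PDS5A, and for MAU2 to 0.0094 with the lengths scaled on genes of at least 10 TPM.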

Other observations

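Related SMC complexes were measured beside cohesin. Of 8 condensin genes, whose complexes compact mitotic chromosomes, 0 passed the false discovery rate by limma-voom. At an unadjusted p under 0.05 there was 1 lower in CTCF-dRBR and 0 higher, where 12.8% and 12.6% of all genes tested were. The median log2 fold change of the 8 was −0.08, and that of all genes tested was −0.01. The lower gene was NCAPD2, a HEAT-repeat subunit of condensin I, at 280, 287 and 267 CPM in CTCF-WT against 138, 209 and 215 CPM in CTCF-dRBR. Each CTCF-dRBR library was lower, with a log2 fold change of −0.59 (SE 0.18, adjusted p = 0.15), −0.37 with the GC trend removed (adjusted p = 0.0404) and −0.39 without CTCF-dRBR replicate 1 (adjusted p = 0.0463). NCAPG2, of condensin II and named after its values were seen, was at −0.12 (adjusted p = 0.468) and passed with the GC trend removed, at −0.35 (adjusted p = 0.0215). NCAPG, the other HEAT-repeat subunit of condensin I, was at 0.30 (adjusted p = 0.219) and at −0.01 with the trend removed, and NCAPH2, the kleisin of condensin II, was at −0.87 (adjusted p = 0.231) and at −0.23. Of the 6 genes found of the SMC5/6 complex, which acts in DNA repair, 0 passed, and the median was 0.25. At an unadjusted p under 0.05, 1 was higher and 0 lower, where 12.6% and 12.8% of all genes tested were. With the GC trend removed the 6 ran from −0.445 (NDNL2) to 0.30 (SMC6), against −0.24 to 0.62 with it. The higher gene was SMC6, an ATPase of the complex, at 93.9, 96.9 and 115 CPM in CTCF-WT against 227, 138 and 124 CPM in CTCF-dRBR. It was higher in each CTCF-dRBR library, with a log2 fold change of 0.62 (adjusted p = 0.185), and 0.30 with the trend removed (adjusted p = 0.115). NSMCE4A was at 0.27 (adjusted p = 0.237) and NDNL2, the MAGE-type subunit, at −0.24 (adjusted p = 0.228).

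The meiotic cohesin subunits had low levels in this line. SMC1B was at 0.163 to 1.10 CPM, REC8, the meiotic kleisin, at 0.602 to 2.55 CPM and STAG3 at 1.59 to 4.42 CPM over the 6 libraries, and none differed beyond the spread (limma-voom adjusted p from 0.306 to 0.494). STAG3 has near-identical pseudogene copies, so its counts are uncertain.

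The members did not vary as a single block across the 6 libraries. Pearson's r with the mean profile of the 10 members, a description over 6 libraries that share the GC trend, was 0.989 for SMC3, 0.974 for PDS5B and 0.962 for STAG1, but 0.118 for SMC1A and −0.805 for MAU2. STAG2, WAPAL and PDS5A had r of 0.96 to 0.991 with one another, and MAU2 had r of −0.985 with STAG2. The 5 non-members most like the mean profile were ELF1 and DNAJC2 (r = 0.999 each), SET (0.999), PMAIP1 (0.998) and GOLPH3L (0.995), with exonic GC contents of 39.2% to 43.6%.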
